A study of Mus musculus with 6 samples.

Results

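The 32 genes described here encode the digestive enzymes of the lysosome, proteins of its membrane, subunits of its proton pump and a pair of transcription factors that regulate lysosomal genes. They were picked by gene symbol from a fixed list of lysosomal genes, with no rule on their measured values. The list itself was chosen with earlier results of these data known. All 32 were among the 40773 gene symbols of the count table, and all 32 passed the filter on low counts that left 11498 genes for testing. The genes fall into 6 membrane proteins, 8 cathepsins and legumain, 7 glycosidases, 3 genes for a lipase and lysosomal cofactors, 3 genes for the transcription factors and an autophagy receptor, and 5 subunits of the vacuolar ATPase (V-ATPase).

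The study treated RAW264.7 cells, a macrophage line derived from a mouse tumour, for 24 h. The treated cultures received lipopolysaccharide (LPS), a bacterial cell wall component, at 100 ng/mL together with 3A2, an antibody that neutralizes the membrane protease MMP14, at 50 µg/mL. The other cultures received LPS alone at 100 ng/mL, so every culture carried LPS and the line was the same throughout. There were 3 biological replicates in each group, and the comparison addresses what adding 3A2 changes in the transcriptome of LPS-treated macrophages. Cultures without LPS and cultures with a control antibody were not analysed here. Effects of neutralizing MMP14 and of adding an antibody as such therefore cannot be told apart.

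Lysosomes are acidic organelles in which macrophages degrade what they engulf and what autophagy delivers. The V-ATPase pumps protons into the lumen, soluble hydrolases work at the resulting low pH, and glycosylated membrane proteins line the limiting membrane. The transcription factors TFEB and TFE3 bind a short DNA element, known as CLEAR, near the start of many lysosomal genes, and MMP14 itself is known for cutting collagen and activating other proteases at the cell surface.

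The libraries held 6218086, 6537419 and 6060732 counts with LPS plus 3A2 and 6844331, 7432553 and 6431096 counts with LPS. Mmp14, the gene of the antibody's target, had 2, 6 and 3 counts with LPS plus 3A2 and 1, 5 and 0 counts with LPS, below the filter. Its CPM, which are counts scaled to the library total, gave a two-sided exact permutation p of 0.4, where the smallest p that 3 against 3 allows is 0.1, and the mRNA of the target is no check that the antibody reached the protein. Summed CPM of 10 macrophage markers ranged between 5787 and 6197 with LPS plus 3A2 and between 6676 and 6743 with LPS. Osteoclast markers, which overlap with lysosomal genes, summed to 269 to 283 CPM with LPS plus 3A2 and 266 to 283 CPM with LPS, with Calcr at 0. Most of that sum was Mmp9 (113 to 138 CPM), Nfatc1 (74.5 to 85.6 CPM) and Dcstamp (48.0 to 72.8 CPM). Acp5 was at most 8.83 CPM, and Ctsk, Ocstamp, Itgb3 and Oscar were at most 3.34 CPM. Of the other cell types, all 6 epithelial markers and 9 of 10 lymphocyte markers were at 0, fibroblast markers summed to at most 3.96 CPM, and neutrophil and mast cell markers summed to at most 7.47 CPM. Replicate 3 of LPS plus 3A2 stood apart from the other libraries, as set out for the lysosomal genes after the group results, and the values without it are given beside many of the results in which it was the highest or the lowest library.

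The promoters of these genes were searched for the CLEAR element and its core, and a few are shown here because their genes are those that TFEB and TFE3 are known to regulate through it. A window of 250 bases before and 50 bases after the annotated start (RefSeq, mouse build GRCm38.p6) was available for 29 of the 32 genes. The hexamer CACGTG, which reads the same on both strands, occurred in the windows of 11 of those 29 genes, or 37.9%, against 12.04% of 9018 tested genes with a window and 7.15% of all 32851 windows. The longer TCACGTGA, which contains the hexamer, occurred in 6 of the 29 genes, or 20.7%, against 2.30% of tested genes and 0.974% of all windows. TCACGTGA preceded by G and followed by C is the full palindrome of the element. It occurred in 0 of the 29 genes, against 0.854% of tested genes and 0.326% of all windows. Some genes have several windows, so the shares of all windows are not like the shares of genes. By window, the counts for the 29 genes were 11 of 37 for CACGTG, 6 of 37 for TCACGTGA and 0 of 37 for the full palindrome. A closer background is 56 other tested genes for lysosomal hydrolases, membrane proteins and V-ATPase subunits. Their shares were 17.9% for CACGTG, 8.93% for TCACGTGA and 1.79% for the full palindrome. These matches are descriptions of sequence and say nothing of binding in these cells. The lines below give the 250 bases before the start, 5′ to 3′ on the strand of the gene, with CACGTG or TCACGTGA in capitals. Lamp1 is shown for its 4 copies, Mcoln1, Ctsd and Gla for 2 copies each, and Atp6v1a as a proton pump subunit with 1 copy.
Lamp1 (chr8:13158911-13159160, + strand): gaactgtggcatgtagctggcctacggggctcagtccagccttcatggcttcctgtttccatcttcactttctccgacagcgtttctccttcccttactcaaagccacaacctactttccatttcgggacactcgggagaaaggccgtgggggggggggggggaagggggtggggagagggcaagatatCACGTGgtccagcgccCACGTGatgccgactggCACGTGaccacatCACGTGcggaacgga
Mcoln1 (chr8:3500269-3500518, + strand): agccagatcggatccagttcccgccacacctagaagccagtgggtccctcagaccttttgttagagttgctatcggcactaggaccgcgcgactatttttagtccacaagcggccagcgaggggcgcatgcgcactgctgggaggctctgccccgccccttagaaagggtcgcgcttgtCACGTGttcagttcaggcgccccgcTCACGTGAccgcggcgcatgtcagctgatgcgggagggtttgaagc
Ctsd (chr7:142387828-142388077, - strand): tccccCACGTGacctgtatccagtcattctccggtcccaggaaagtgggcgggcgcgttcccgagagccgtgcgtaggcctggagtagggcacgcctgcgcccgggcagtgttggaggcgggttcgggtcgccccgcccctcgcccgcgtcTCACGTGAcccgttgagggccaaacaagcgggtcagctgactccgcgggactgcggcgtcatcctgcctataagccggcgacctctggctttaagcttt
Gla (chrX:134601006-134601255, - strand): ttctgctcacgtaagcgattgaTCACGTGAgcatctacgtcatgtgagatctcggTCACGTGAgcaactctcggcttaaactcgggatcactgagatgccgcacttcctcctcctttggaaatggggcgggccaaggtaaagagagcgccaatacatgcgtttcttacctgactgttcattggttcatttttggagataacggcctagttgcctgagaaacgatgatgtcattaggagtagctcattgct
Atp6v1a (chr16:44139260-44139509, - strand): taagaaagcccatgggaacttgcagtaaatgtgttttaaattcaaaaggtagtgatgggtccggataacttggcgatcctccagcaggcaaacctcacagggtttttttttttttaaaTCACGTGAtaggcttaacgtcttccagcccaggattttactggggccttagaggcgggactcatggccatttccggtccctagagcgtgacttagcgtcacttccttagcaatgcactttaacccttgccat
In Lamp1 the 4 hexamers began 61, 45, 28 and 15 bases before the start. In Ctsd they began 245 and 98 bases before it, and in Gla 227 and 194 bases before it.

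Lysosomal mRNA levels were alike in the 2 groups within narrow bounds. By edgeR's quasi-likelihood test 0 of the 32 genes were called higher and 0 lower, taking as called an adjusted p (Benjamini-Hochberg) under 0.05, and none of the 32 had an adjusted p below 0.734. The background is 0% of genes called, since 0 of 11498 genes passed with edgeR, and DESeq2 and limma-voom called 0 as well. Without replicate 2 of LPS plus 3A2, edgeR called 25 genes, none of them among the 32. At an unadjusted p under 0.05 there was 1 of 32 (3.13%), Atp6v1h, with edgeR and with limma-voom and 0 with DESeq2. The background is 6.51%, or 749 genes, with edgeR, 6.44% with limma-voom and 3.30% with DESeq2. Atp6v1h was higher with LPS plus 3A2, where the background with edgeR is 3.43%, and 0 of 32 were lower, where it is 3.09%. The count of members at an unadjusted p under 0.05 ranged from 0 to 5 over the fits leaving out a library. It was 5 without replicate 2 of LPS plus 3A2, 2 without replicate 3 of LPS plus 3A2, and 0 without replicate 1 or replicate 3 of LPS. The background was 5.6% without replicate 3 of LPS plus 3A2, 5.6% without replicate 1 of LPS and 4.2% without replicate 3 of LPS. The 5 genes were Lamp2 and Atp6v1h, higher with LPS plus 3A2, and Ctsa, Neu1 and Grn, lower, in a fit where the background is 15.02%. The fitted log2 fold change of LPS plus 3A2 over LPS was above 0 for 16 genes and below 0 for 16. Its median was 0.00 over the 32 genes and 0.00 over all genes tested. The median size of the log2 fold change, regardless of sign, was 0.061 over the 32 genes, 0.095 over all genes tested and 0.073 over the 5388 genes at least as abundant as the second lowest member (32.05 CPM). Fold changes ran between 0.926 for Neu1 and 1.30 for Tfeb. In bulk libraries such as these, fewer cells expressing a gene and less mRNA per cell cannot be told apart.

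The data bound these differences more tightly than a missed threshold alone would. For 28 of the 32 genes, or 87.5%, the whole 95% interval of the fold change fell between 0.8 and the inverse of 0.8, against a background of 42.7% of all genes tested. Abundant genes have narrower intervals, and among the 5388 abundant genes the share was 77.5%. The count of 28 ranged from 24, without replicate 1 of LPS plus 3A2, to 30, without replicate 3 of LPS plus 3A2, over the fits leaving out a library. The backgrounds in these fits were 29.1% and 45.9% of all genes, in that order. With all libraries in, the 4 genes outside those bounds were Lamp2, Gla, Tfeb and Atp6v1h. At the wider bound of 1.5-fold up or down there were 31 of the 32 (96.9%), all but Tfeb, against a background of 79.5% of all genes and 98.96% of the 5388 abundant genes. The values of one group lay wholly beyond those of the other for 4 of the 32 genes, or 12.5%, against a background of 12.3%. These were Ctsl, Gla and Atp6v1h, higher with LPS plus 3A2 (background 5.84%), and Ctsa, lower (background 6.46%), so the share is that of genes at large. A larger share of all genes was apart in each fit leaving out a library than with all libraries in. Without replicate 2 of LPS plus 3A2, 11 of the 32 genes were apart, where 31.3% of all genes were. The count was 7 without replicate 1 of LPS plus 3A2, where 20.8% were, and 4 without replicate 3 of LPS, where 20.1% were.

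**Figure D1:**
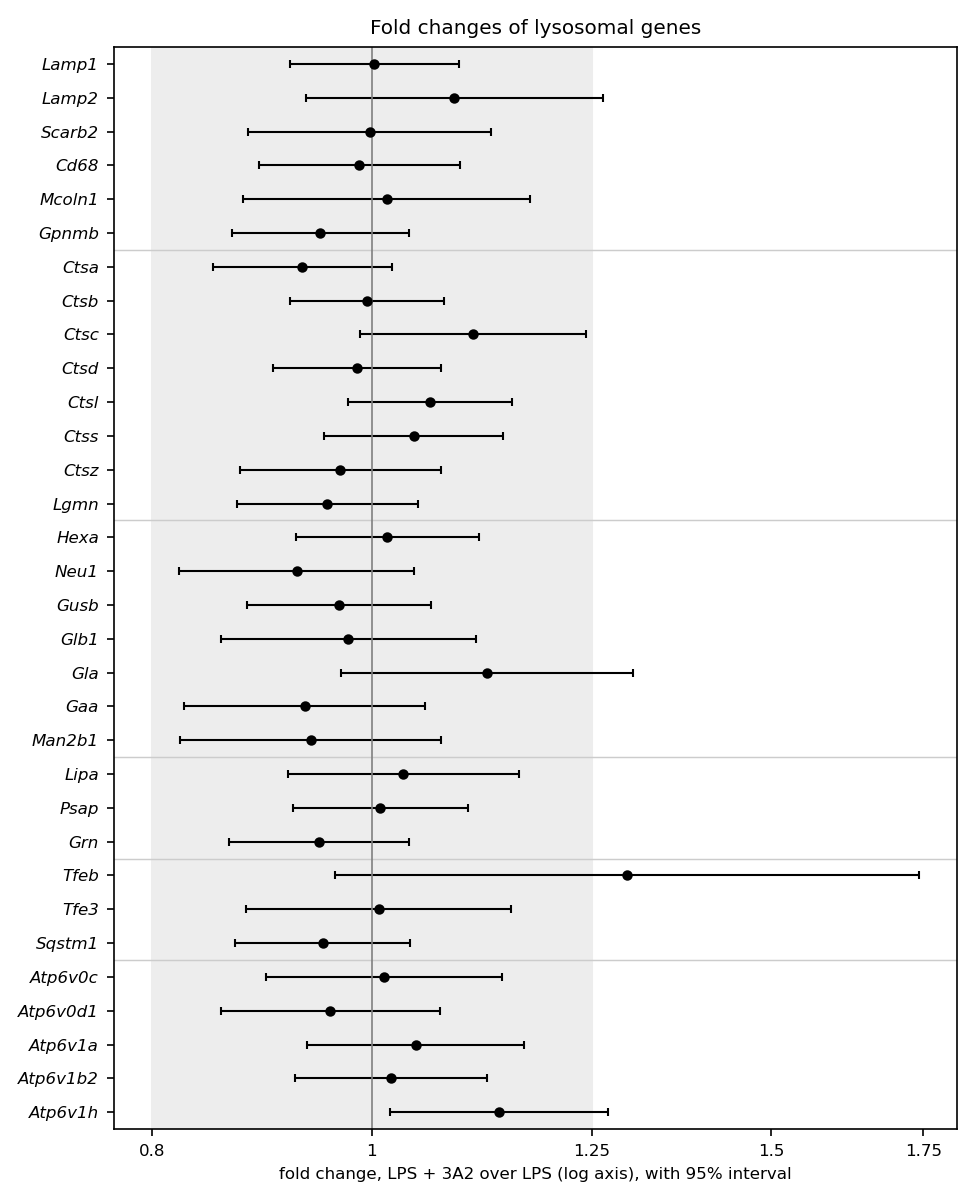
Fold change of LPS plus 3A2 over LPS for each of the 32 lysosomal genes (points, log axis) with its 95% interval (bars), n = 3 libraries a group; grey marks 0.8 to its inverse and lines separate the roles. The intervals of 28 genes stay in the grey band, and the widest belongs to Tfeb, 0.963 to 1.74.

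The membrane proteins differed by little between the groups. Lamp1, a main glycoprotein of the lysosomal membrane, stood at 642, 599 and 663 CPM with LPS plus 3A2 and 644, 631 and 624 CPM with LPS. The groups overlapped, and the fold change was 1.00 with a 95% interval of 0.920 to 1.09. Lamp2, its relative and the receptor of chaperone-mediated autophagy, stood at 243, 213 and 302 CPM with LPS plus 3A2 and 237, 237 and 222 CPM with LPS. Replicate 3 of LPS plus 3A2 was the highest of the 6 libraries and replicate 2 of LPS plus 3A2 the lowest. Its fold change was 1.09 (0.936 to 1.26). It was 0.982 (0.903 to 1.07) without replicate 3 and 1.17 (1.05 to 1.30; adjusted p = 0.162, edgeR) without replicate 2.

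Scarb2, the LIMP-2 protein that carries glucocerebrosidase to the lysosome, was the steadiest of the 32. Its levels were 51.1, 50.3 and 50.9 CPM with LPS plus 3A2 and 51.0, 50.3 and 51.4 CPM with LPS, a fold change of 0.998 (0.882 to 1.13). Cd68, the macrophage protein macrosialin, had 462, 511 and 413 CPM with LPS plus 3A2 and 453, 468 and 483 CPM with LPS. The LPS values all lay inside the range of the LPS plus 3A2 values, and the fold change was 0.988 (0.892 to 1.09). Mcoln1, the TRPML1 calcium channel, had 36.3, 34.5 and 34.7 CPM with LPS plus 3A2 and 36.0, 35.3 and 32.5 CPM with LPS, a fold change of 1.02 (0.877 to 1.17). Gpnmb, a transmembrane glycoprotein of late endosomes and lysosomes in macrophages, had 458, 481 and 427 CPM with LPS plus 3A2 and 469, 481 and 489.9 CPM with LPS, and its fold change was 0.949 (0.868 to 1.04). As a group the membrane proteins had 3 fold changes above 1 and 3 below, and 0 of 6 had groups that did not overlap.

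The cathepsins and legumain, the proteases of the lysosome, made up the largest share of the counts of the 32 genes, between 53.3% and 53.5% with LPS plus 3A2 and between 52.9% and 53.6% with LPS. The most abundant per gene was Ctsb, a cysteine protease, with 1855, 1899 and 1895 CPM with LPS plus 3A2 and 1853, 1900 and 1922 CPM with LPS. Both groups covered nearly the same values, and the fold change was 0.995 (0.920 to 1.08). Ctsd, the main aspartic protease of lysosomes, had 1429, 1506 and 1358 CPM with LPS plus 3A2 and 1403, 1439 and 1515 CPM with LPS, a fold change of 0.985 (0.905 to 1.07). For neither did the fitted difference exceed the spread between replicates.

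Ctsl, another cysteine protease, was the only cathepsin whose LPS plus 3A2 libraries all lay above the LPS libraries. It had 914, 948 and 996 CPM with LPS plus 3A2 and 877, 909.6 and 909 CPM with LPS. The lowest of the LPS plus 3A2 values and the highest of the LPS values were only a few CPM apart, and the fold change of 1.06 (0.976 to 1.15) missed the threshold (adjusted p = 0.813, edgeR). Ctsa, the carboxypeptidase that also protects sialidase and β-galactosidase, was the only member of all 32 whose LPS plus 3A2 libraries all lay below the LPS libraries. It had 477, 494 and 432 CPM with LPS plus 3A2 and 496, 505 and 504 CPM with LPS. Replicate 2 of LPS plus 3A2 was within a few CPM of the lowest LPS value, and the fold change was 0.932 (0.851 to 1.02; adjusted p = 0.801, edgeR). It was 0.968 (0.906 to 1.03) without replicate 3 of LPS plus 3A2 and 0.906 (0.828 to 0.991; adjusted p = 0.286, edgeR) without replicate 2.

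Ctsc, which activates the serine proteases of immune cell granules, had 85.2, 97.7 and 101 CPM with LPS plus 3A2 and 85.5, 87.5 and 83.1 CPM with LPS. Replicates 2 and 3 of LPS plus 3A2 lay above all LPS values and replicate 1 among them, and the fold change was 1.11 (0.988 to 1.24). Ctss, the cathepsin that trims the invariant chain of MHC class II, had 321, 339 and 354 CPM with LPS plus 3A2 and 336, 316 and 319.8 CPM with LPS, a fold change of 1.04 (0.953 to 1.14). Ctsz, a carboxypeptidase, had 553, 580.1 and 486 CPM with LPS plus 3A2 and 539.6, 531 and 601 CPM with LPS, a fold change of 0.968 (0.875 to 1.07) that was 1.02 (0.946 to 1.09) without replicate 3 of LPS plus 3A2. The groups of Ctss and of Ctsz overlapped. Lgmn, the asparaginyl endopeptidase legumain that processes several cathepsins, had 389, 407 and 354 CPM with LPS plus 3A2 and 399.6, 403 and 401 CPM with LPS. Its LPS values were almost equal, while its LPS plus 3A2 values lay on both sides of them, with a fold change of 0.956 (0.872 to 1.05). Of the 8 proteases, 3 had a fold change above 1 and 5 below, and all 8 intervals stayed between 0.8 and its inverse.

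The glycosidases, which remove sugars from glycoproteins and glycolipids, held the lowest fold change of the 32 genes, that of Neu1, and 1 gene whose groups did not overlap, Gla. Neu1, the lysosomal sialidase, had 97.5, 104 and 83.1 CPM with LPS plus 3A2 and 106, 99.3 and 102 CPM with LPS. The lowest of the 6 libraries was replicate 3 of LPS plus 3A2. The fold change was 0.926 (0.822 to 1.04), and it was 0.983 (0.892 to 1.08) without that library. Without replicate 2 of LPS plus 3A2 it was 0.882 (0.785 to 0.992; adjusted p = 0.301, edgeR). Gla, the α-galactosidase A that degrades globotriaosylceramide, had 34.1, 32.5 and 35.2 CPM with LPS plus 3A2 and 29.6, 30.5 and 30.4 CPM with LPS. Its groups did not overlap, and the fold change of 1.12 (0.969 to 1.30) missed the threshold (adjusted p = 0.799, edgeR).

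Gaa, the acid α-glucosidase that breaks down glycogen, had 101, 103 and 82.1 CPM with LPS plus 3A2 and 98.6, 103 and 106 CPM with LPS. Its fold change was 0.934 (0.826 to 1.06), and it was 0.999 (0.907 to 1.10) without replicate 3 of LPS plus 3A2. Man2b1, the lysosomal α-mannosidase, was likewise lowest in that library, with 57.1, 54.8 and 47.7 CPM with LPS plus 3A2 and 54.2, 59.9 and 55.7 CPM with LPS. Hexa, a subunit of β-hexosaminidase, had 255, 254 and 238 CPM with LPS plus 3A2 and 241, 236 and 259 CPM with LPS, and its groups overlapped. Gusb, the β-glucuronidase, had 269.5, 295 and 277 CPM with LPS plus 3A2 and 276, 290.2 and 304 CPM with LPS. Glb1, the β-galactosidase, had 52.7, 50.3 and 46.7 CPM with LPS plus 3A2 and 49.5, 50.4 and 53.6 CPM with LPS. The fold changes of Man2b1, Hexa, Gusb and Glb1 were 0.940, 1.02, 0.967 and 0.977, and all 4 intervals stayed between 0.8 and its inverse. That of Man2b1 was 0.987 without replicate 3 of LPS plus 3A2. Of the 7 glycosidases, 2 had a fold change above 1 and 5 below.

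The lipase and the cofactors differed as little. Lipa, the lysosomal acid lipase that hydrolyses cholesteryl esters, had 115, 117 and 142 CPM with LPS plus 3A2 and 121, 120.1 and 119 CPM with LPS. Replicates 1 and 2 of LPS plus 3A2 lay below all LPS values and replicate 3 well above them. Its fold change was 1.03 (0.918 to 1.16), and it was 0.961 (0.877 to 1.05) without replicate 3. Psap, the precursor of the saposins that help hydrolases reach sphingolipids, had 649, 719.8 and 637 CPM with LPS plus 3A2 and 665, 646 and 678 CPM with LPS, a fold change of 1.01 (0.923 to 1.10). Grn, the precursor progranulin, had 516, 556 and 482 CPM with LPS plus 3A2 and 537, 542 and 560.2 CPM with LPS, a fold change of 0.948 (0.865 to 1.04). It was 0.981 (0.917 to 1.05) without replicate 3 of LPS plus 3A2 and 0.913 (0.836 to 0.997; adjusted p = 0.314, edgeR) without replicate 2. The groups overlapped for all 3.

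Tfeb, the transcription factor best known as a regulator of lysosomal genes, had the largest fitted difference and the lowest level of the 32 genes. It stood at 9.09, 9.39 and 7.18 CPM with LPS plus 3A2 and 5.57, 8.03 and 6.14 CPM with LPS. Replicate 3 of LPS plus 3A2 lay below replicate 2 of LPS, so the groups overlapped. The fold change was 1.30 with a 95% interval of 0.963 to 1.74 (adjusted p = 0.761, edgeR), and without replicate 3 of LPS plus 3A2 it was 1.40 (1.02 to 1.91; adjusted p = 0.876). Tfe3, its relative, had 57.6, 68.8 and 54.6 CPM with LPS plus 3A2 and 62.8, 58.2 and 59.0 CPM with LPS, a fold change of 1.01 (0.880 to 1.15). Sqstm1, the autophagy receptor p62, had 405, 431 and 386 CPM with LPS plus 3A2 and 429, 426 and 429.7 CPM with LPS, a fold change of 0.951 (0.871 to 1.04). Genes with and without the CLEAR core in their promoter windows could be compared as a description. The 11 genes with CACGTG had 5 fold changes above 1 and 6 below, at a median of -0.021 on the log2 scale, and the 18 genes without it had 9 above and 9 below, at a median of 0.0036.

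The V-ATPase subunits included the only gene with an unadjusted p under 0.05. Atp6v1h, a regulatory subunit of the cytosolic V1 sector, had 90.7, 82.0 and 90.8 CPM with LPS plus 3A2 and 77.6, 76.8 and 77.2 CPM with LPS. All LPS plus 3A2 libraries lay above the closely spaced LPS libraries. The fold change was 1.14 (1.02 to 1.27), with an unadjusted p of 0.0248 and an adjusted p of 0.734 by edgeR's quasi-likelihood test. Without replicate 3 of LPS plus 3A2 it was 1.12 (1.01 to 1.24; adjusted p = 0.878). By the same test the unadjusted p was under 0.05 without replicate 2 or replicate 3 of LPS plus 3A2. It was not under 0.05 without replicate 1 of LPS plus 3A2 or in any fit leaving out an LPS library. Atp6v1a, the catalytic V1 subunit, had 325, 326 and 404 CPM with LPS plus 3A2 and 344, 341 and 324 CPM with LPS. Replicate 3 of LPS plus 3A2 was the highest of the 6. The fold change was 1.05 (0.937 to 1.17), and it was 0.968 (0.902 to 1.04) without that library.

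Atp6v1b2, the other subunit of the ATP-binding ring, had 159, 153 and 156 CPM with LPS plus 3A2 and 145, 159 and 154 CPM with LPS, a fold change of 1.02 (0.925 to 1.12). Atp6v0d1, which joins the ring in the membrane to the central stalk, had 107, 103 and 94.8 CPM with LPS plus 3A2 and 109, 98.9 and 111 CPM with LPS, a fold change of 0.959 (0.858 to 1.07). Atp6v0c, the proteolipid of the proton-carrying ring, had 77.7, 94.97 and 90.2 CPM with LPS plus 3A2 and 88.0, 82.3 and 89.5 CPM with LPS, a fold change of 1.01 (0.898 to 1.14). The groups overlapped for these 3 subunits. The level of Atp6v0c is uncertain, because Atp6v0c-ps2, a processed pseudogene in the same table, matches it at 99.785% of 465 aligned bases. The pseudogene row held 2806, 3105 and 2682 counts with LPS plus 3A2 and 3104, 3352 and 3122 counts with LPS, several times those of Atp6v0c. Added together, the pair gave a fold change of 1.00 (0.918 to 1.09).

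**Figure D2:**
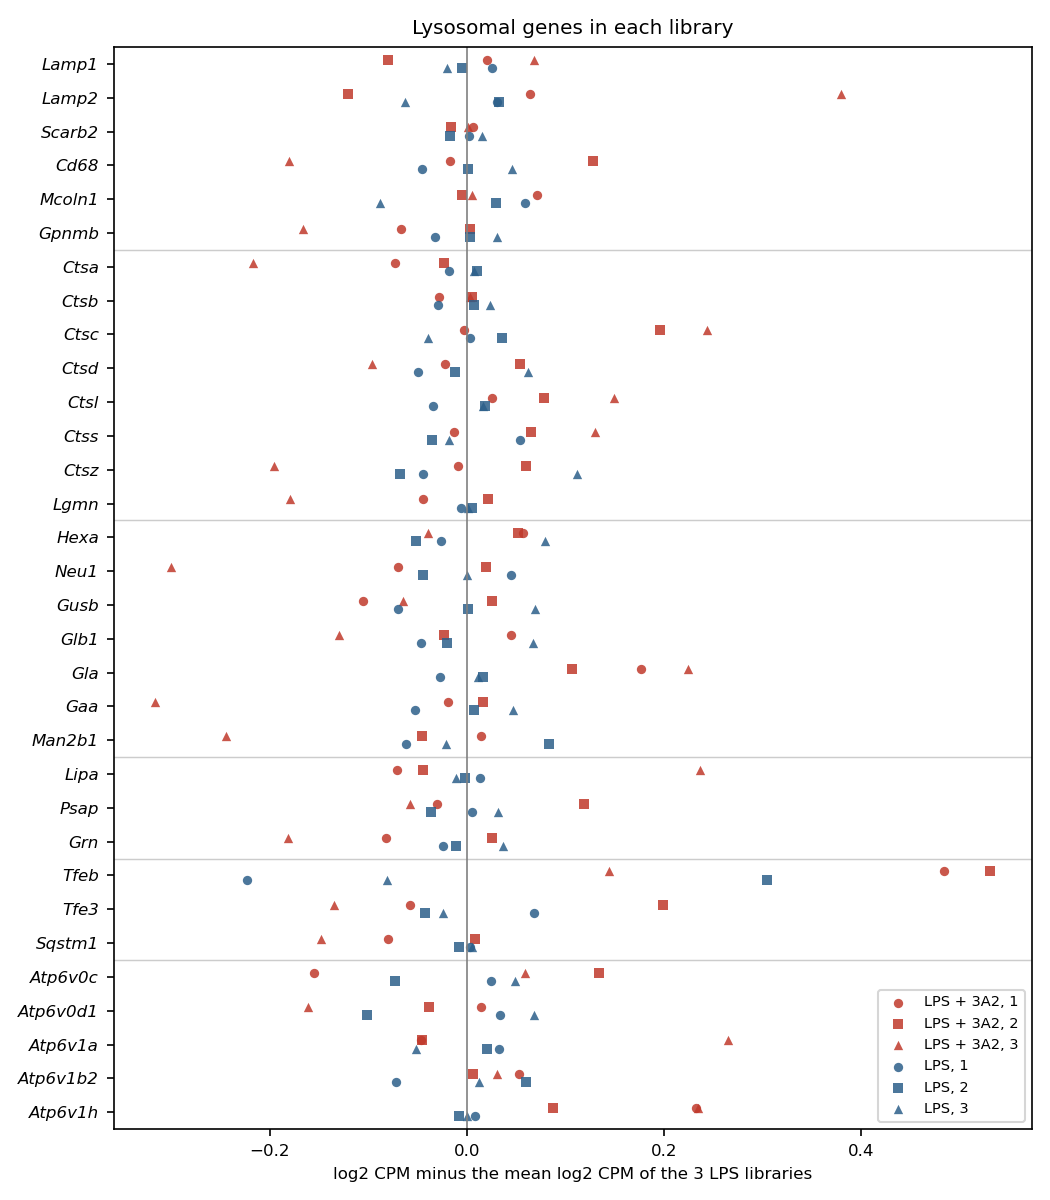
Each library's log2 CPM minus the mean log2 CPM of the 3 LPS libraries, for the 32 lysosomal genes (rows, lines separate the roles), with red symbols for LPS plus 3A2 and blue for LPS and one symbol shape per replicate. The red triangles, replicate 3 of LPS plus 3A2, are the farthest symbols from 0 in many rows, such as Lamp2 on the right and Gaa on the left.

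A single library held many of the extreme values among these genes. Replicate 3 of LPS plus 3A2 was the lowest of the 6 libraries for 15 of the 32 genes and the highest for 9. The log2 level of each gene in that library minus its mean in the other 5 had an SD of 0.176 over the 32 genes, against 0.063 to 0.105 when each of the other 5 libraries was treated the same way. Over 10311 tested genes with an annotated transcript this SD was 0.260, against 0.178 to 0.204, so the library also stood apart over genes at large. Among the 32 genes the deviation in replicate 3 of LPS plus 3A2 was highest for Lamp2 at 0.39, Atp6v1a at 0.28 and Lipa at 0.26, and lowest for Gaa at -0.31 and Neu1 at -0.29. The coefficient of variation between replicates had a median of 6.44% with LPS plus 3A2 and 3.15% with LPS, and it was larger with LPS plus 3A2 for 25 of the 32 genes. No share over all genes is given for this count or for the counts of genes lowest or highest in replicate 3 of LPS plus 3A2.

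These deviations tracked the base composition of the transcripts. Of 11 genes whose main transcript had a GC content under 50%, 10 lay above the mean of the other libraries in replicate 3 of LPS plus 3A2, and of 21 genes at 50% or more, 18 lay below it. Across the 32 genes Pearson's r between deviation and GC content was -0.82 and Spearman's rho was -0.73, and across 10311 tested genes with an annotated transcript r was -0.58 and rho was -0.62. All points come from 1 library, genes are not independent replicates, and no test was made. In replicate 2 of LPS plus 3A2 the relation ran the other way, with r of 0.61 across the 32 genes and 0.37 across all. Mitochondrially encoded mRNAs took 2.54%, 2.18% and 3.06% of counts in the LPS plus 3A2 libraries and 2.35%, 2.24% and 2.22% in the LPS libraries, again with replicate 3 of LPS plus 3A2 highest. All 13 of these mRNAs had a fold change above 1, and 0 were called by edgeR. At an unadjusted p under 0.05 there were 4 (30.8%), against a background of 6.51% of all genes tested. The smallest p was that of mt-Nd4l at a fold change of 1.22 (1.06 to 1.41), and the most abundant, mt-Co1, was at 1.12 (0.974 to 1.30). Without replicate 3 of LPS plus 3A2 these were 1.12 (1.02 to 1.22) and 1.03 (0.958 to 1.11), with all 13 fold changes above 1 and 0 called. Without replicate 2 of LPS plus 3A2, 5 of the 13 were called, mt-Nd4l among them at 1.32 (adjusted p = 0.00986, edgeR). In that fit 25 of 11667 genes were called. The part of base composition in the values of single genes was not tested. A fit with offsets that remove each library's trend on GC content was made as a description. In that fit the SD of the 32 deviations in replicate 3 of LPS plus 3A2 was 0.098, 0 of the 32 genes were called, and the fold changes of Lamp2, Lipa and Atp6v1a were 1.00, 1.00 and 1.02. The offsets were fitted to the deviations of the tested genes in these same libraries, so a smaller SD follows from the fit itself and is no test. In the same fit Tfeb was at 1.37 (1.04 to 1.81; adjusted p = 0.504, edgeR) and Atp6v1h at 1.09 (0.999 to 1.19; adjusted p = 0.582).

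**Figure D3:**
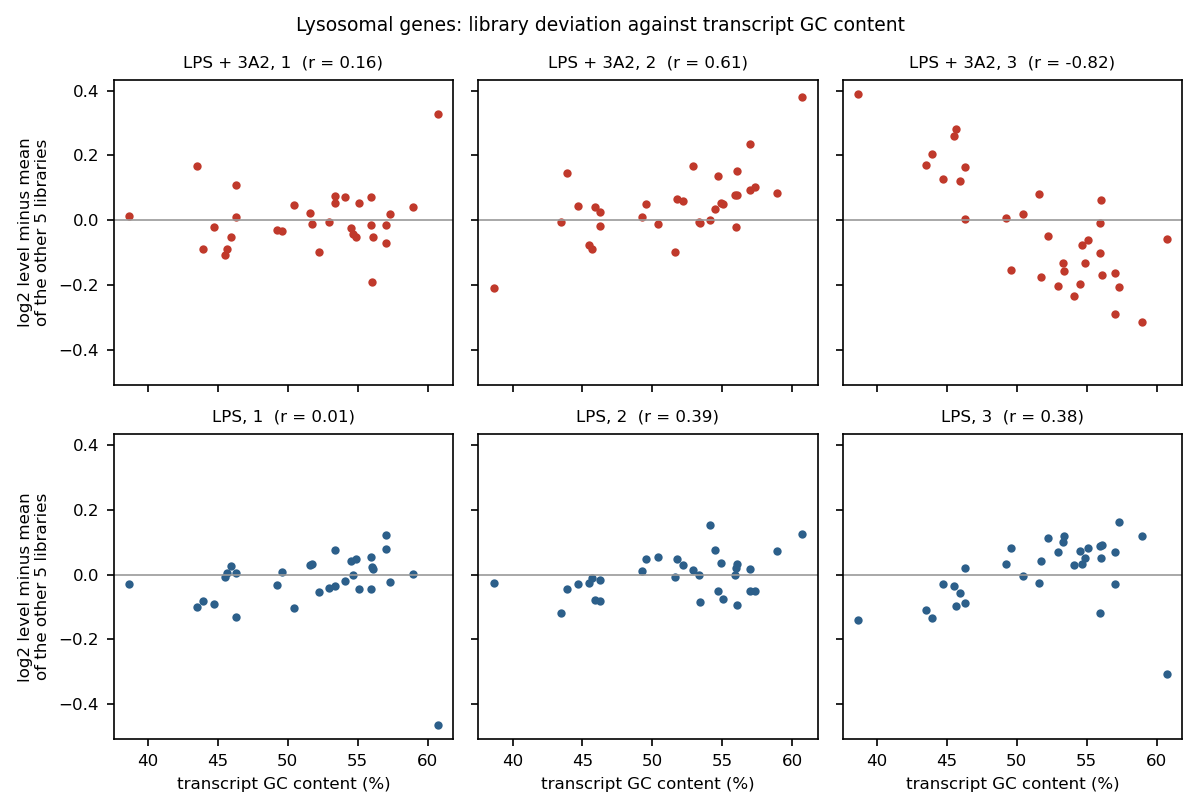
For each library, the log2 level of the 32 lysosomal genes minus their mean in the other 5 libraries (vertical axis) against the GC content of the transcript in percent (horizontal axis), with Pearson's r over the 32 genes above each panel. The points of replicate 3 of LPS plus 3A2 slope downward (r = -0.82) and those of replicate 2 of LPS plus 3A2 slope upward (r = 0.61).

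The total of lysosomal mRNA and the order of the genes within it were alike in both groups. The 32 genes took 1.12%, 1.16% and 1.11% of all counts in the LPS plus 3A2 libraries and 1.13%, 1.15% and 1.18% in the LPS libraries. Divided by transcript length, levels spanned 3.73 ± 0.522 CPM per kb for Tfeb to 673 ± 34.9 CPM per kb for Ctsd with LPS plus 3A2, and 2.87 ± 0.561 to 683 ± 26.9 CPM per kb for the same genes with LPS (SD, n = 3 each). After Ctsd came Ctsl at 483 ± 20.8 CPM per kb with LPS plus 3A2 and 456 ± 9.43 CPM per kb with LPS, and then Ctsb at 397 ± 5.11 CPM per kb with LPS plus 3A2 and 399 ± 7.42 CPM per kb with LPS. Below these, Ctsz and Cd68 differed from each other by less than their spread and changed places between the groups, with Cd68 at 376 ± 40.0 and Ctsz at 374 ± 33.8 CPM per kb with LPS plus 3A2 and 380.3 ± 12.1 and 387 ± 26.6 CPM per kb with LPS. At the low end, Scarb2 and Gla lay near 10 CPM per kb, at 10.8 ± 0.0867 and 10.7 ± 0.435 CPM per kb with LPS plus 3A2 and 10.8 ± 0.121 and 9.51 ± 0.158 CPM per kb with LPS. Spearman's rho between the orders of the groups was 0.997 over the 32 genes, a description in which every gene keeps its own length.

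**Figure D4:**
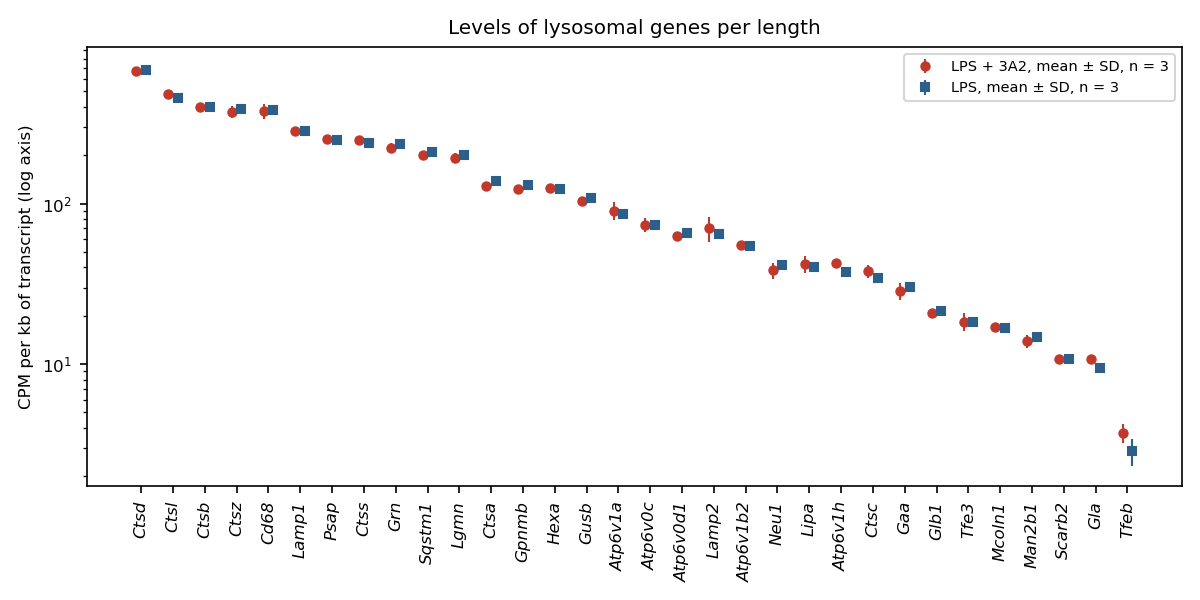
Mean level of each lysosomal gene in CPM per kb of transcript (log axis) with SD bars over 3 libraries a group, red circles for LPS plus 3A2 and blue squares for LPS, ordered by the LPS level. Levels run from Ctsd at the left, 673 and 683 CPM per kb, to Tfeb at the right, 3.73 and 2.87 CPM per kb.

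Among other genes of the lysosome and of autophagy, in 7 further lists, 0 were called by edgeR. Of 14 other V-ATPase subunits and accessory proteins tested, 6 had a fold change above 1 and 8 below. At an unadjusted p under 0.05 there were 0 of the 14, against a background of 6.51% of all genes tested. Their smallest p belonged to Atp6ap2, the accessory subunit also known as the prorenin receptor, which had 109, 102 and 151 CPM with LPS plus 3A2 and 105, 92.7 and 101 CPM with LPS. As for Lamp2, replicate 3 of LPS plus 3A2 was the highest, and the fold change was 1.21 (0.989 to 1.48), or 1.06 (0.956 to 1.17) without that library. The most abundant of the list was Tcirg1, the membrane subunit a3, at a fold change of 0.923 (0.828 to 1.03).

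Of 39 other hydrolases and cofactors, 18 had a fold change above 1 and 21 below. At an unadjusted p under 0.05 there were 2 (5.13%), against a background of 6.51% of all genes tested. The smallest p was that of Arsb, the arylsulfatase B that desulfates dermatan and chondroitin sulfate. It had 45.9, 45.6 and 46.6 CPM with LPS plus 3A2 and 35.3, 40.5 and 35.8 CPM with LPS. The groups did not overlap, and the fold change of 1.23 (1.07 to 1.42) did not pass (unadjusted p = 0.00476, adjusted p = 0.719, edgeR). The most abundant was Npc2, the cholesterol carrier of the lysosomal lumen, with a fold change of 1.02 (0.937 to 1.11).

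Of 23 other lysosomal membrane proteins, 17 had a fold change above 1 and 6 below, at a median of 0.05 on the log2 scale. At an unadjusted p under 0.05 there was 1 gene (4.35%), against a background of 6.51% of all genes tested. That gene was Sppl2a, an intramembrane protease, with 86.2, 69.9 and 99.8 CPM with LPS plus 3A2 and 69.3, 73.2 and 63.4 CPM with LPS. Replicate 2 of LPS plus 3A2 lay among the LPS values, and the fold change was 1.24 (1.06 to 1.45; adjusted p = 0.719, edgeR). Without that library it was 1.35 with an adjusted p of 0.0275 by edgeR, past the threshold. Replicate 3 of LPS plus 3A2 was the highest library, and without it the fold change was 1.13 (1.00 to 1.28; adjusted p = 0.882, edgeR). The most abundant was Laptm5, with a fold change of 1.02 (0.934 to 1.11). It is a lysosomal membrane protein of blood cells.

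Among 12 genes for mannose 6-phosphate tagging and sorting to lysosomes, 6 had a fold change above 1 and 6 below. Vps29, a subunit of the retromer coat, had the smallest p and a fold change of 1.13 (0.981 to 1.30). M6pr, the cation-dependent mannose 6-phosphate receptor, was the most abundant. It had 283, 295 and 310.4 CPM with LPS plus 3A2 and 264, 279.8 and 281 CPM with LPS, and though its groups did not overlap, its fold change was 1.08 (0.983 to 1.18). Among 18 relatives and nutrient-sensing regulators of TFEB, 6 had a fold change above 1 and 12 below. Tsc1, part of the complex that restrains mTORC1, had 33.9, 29.1 and 30.4 CPM with LPS plus 3A2 and 41.3, 33.7 and 36.1 CPM with LPS, with a fold change of 0.841 (0.717 to 0.987; unadjusted p = 0.0352, adjusted p = 0.748, edgeR). The most abundant was Fnip2, a partner of folliculin, at 0.970 (0.885 to 1.06).

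Among 25 autophagy genes, 9 had a fold change above 1 and 16 below. At an unadjusted p under 0.05 there were 0, against a background of 6.51% of all genes tested. Uvrag, which binds Beclin 1, had the smallest p at a fold change of 0.913 (0.816 to 1.02), and Tax1bp1, an autophagy receptor, was the most abundant at 0.963 (0.867 to 1.07). Of 4 cystatins tested, inhibitors of cysteine cathepsins, 3 had a fold change above 1 and 1 below. Stfa3 had 17.0, 12.9 and 13.7 CPM with LPS plus 3A2 and 10.4, 9.77 and 12.4 CPM with LPS, groups that did not overlap, and a fold change of 1.34 (1.06 to 1.70; unadjusted p = 0.0166, adjusted p = 0.719, edgeR). Cst3, the secreted cystatin C and the most abundant, had 516, 517 and 459 CPM with LPS plus 3A2 and 539, 537 and 546 CPM with LPS, with a fold change of 0.920 (0.841 to 1.01). The summed macrophage markers, lower with LPS plus 3A2 in all libraries, are mostly Lyz2, the lysozyme of macrophage granules. Lyz2 had 3909, 3770 and 3660 CPM with LPS plus 3A2 and 4353, 4397 and 4261 CPM with LPS, a fold change of 0.871 (0.805 to 0.943; unadjusted p = 0.00155, adjusted p = 0.719, edgeR). In the fit with GC offsets it was 0.867 with an adjusted p of 0.00627 by edgeR, past the threshold. The offsets were fitted to these same libraries, and 14 genes were called with them against 0 without them. No other fit called Lyz2, and without replicate 3 of LPS plus 3A2 its adjusted p was 0.182 by edgeR. The part of this Lyz2 difference in the values of the 32 genes was not tested.

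Some of these counts can include reads of overlapping genes. Exons of 9 of the 32 genes overlap those of another gene in the GENCODE annotation, on the same strand for 3 and on the opposite strand for 7, and no source used here says whether the counting used strand. By their share of the gene's exons, the largest overlaps are those of Ctsd with Gm49369 on the same strand, Ctsl with the antisense gene Gm47123, and Sqstm1 with Mrnip on the opposite strand. Mrnip had 24, 27 and 31 counts with LPS plus 3A2 and 39, 47 and 33 counts with LPS, while Sqstm1 had 2496, 2799 and 2315 counts with LPS plus 3A2 and 2930, 3184 and 2799 counts with LPS.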

How the data were processed

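RNA of 6 RAW264.7 cultures was sequenced. Libraries were stranded, paired-end and made from RNA depleted of ribosomal RNA, per the labels' protocols. The deposited values are raw counts of reads for each gene symbol, 1 column a library, which the authors did not pool. HISAT2 and edgeR are named without versions, and the build named is GRCh38, a human one, per the submitters' processing notes, while the symbols are those of mouse. No source used here gives the counting program, the annotation or the strand setting. Cells in 3 unnamed columns beside 3 genes were not used, and 0 entries named no gene.

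The labels gave the groups and call the replicates biological. Of all symbols 18179 had a count, with 6060732 to 7432553 counts a library. Counts were filtered with filterByExpr, leaving 11498 genes. TMM scaling and the robust quasi-likelihood F test of edgeR 4.0.16, under R 4.3.3, followed, without covariates. Two-sided p-values were adjusted by the Benjamini-Hochberg method over all genes tested, with a threshold of 0.05. The biological coefficient of variation came to 0.0768. The median SE of a log2 fold change was 0.073 for the 32 genes and 0.119 for all. Intervals are at the 95% level. CPM are counts over TMM-scaled totals. All pairs of libraries differed by more than sampling noise (chi-square per degree of freedom 3.46 to 23.5). The test was tried on simulated data first.

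The members and lists were chosen with earlier results of these data known. The rule for named genes took all members and, of each other list, the gene with the smallest p and the most abundant gene. Lyz2, Mrnip, Rnu5g and Rnu2-10 were named after their values were seen. GC content and length are those of the APPRIS principal transcript with the best support in GENCODE M21, build GRCm38. Promoter windows are from RefSeq, GRCm38.p6, matched by symbol. Alternatives were other scaling factors, other totals, other filters, other thresholds, DESeq2 1.42.0, limma-voom 3.58.1, the replicate number as a block and leaving out each library. Offsets for GC content and the addition of Atp6v0c-ps2 to Atp6v0c were added after the data were seen.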

Additional observations from a re-analysis of the deposited data

How the results depend on the processing

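Of the 32 lysosomal genes, 0 were called under any of 16 alternatives: DESeq2 or upper-quartile factors, reduced totals, no filter or a stricter one, DESeq2, limma-voom, the replicate block, each library left out, offsets for GC content, and the Atp6v0c pseudogene added. Their smallest adjusted p over these was 0.162, for Lamp2 without replicate 2 of LPS plus 3A2, where its fold change was 1.17 (1.05 to 1.30; edgeR). Over all genes the count of calls, 0 as reported, was 16 with no filter and 14 with GC offsets, and it ranged from 0 to 25 over the fits leaving out a library, with 25 without replicate 2 of LPS plus 3A2, 1 (Rnu2-10) without replicate 3 of LPS plus 3A2 and 1 (Rnu5g) without replicate 1 of LPS. The cause was not tested. It was 0 at thresholds of 0.01 and 0.1 as well. The members at an unadjusted p under 0.05 numbered 1 as reported, 0 with DESeq2, and 0 to 5 over the fits leaving out a library, with 5 without replicate 2 of LPS plus 3A2. The backgrounds were 6.51% as reported, 3.30% with DESeq2 and 15.02% without replicate 2 of LPS plus 3A2. Members with an interval between 0.8 and its inverse numbered 28 as reported, 30 with GC offsets, and 24 to 30 over the fits leaving out a library, with 24 without replicate 1 and 30 without replicate 3 of LPS plus 3A2. Their backgrounds were 42.7% as reported, 52.6% with GC offsets, and 29.1% and 45.9% without replicates 1 and 3 of LPS plus 3A2. The median log2 fold change of the 32 genes ranged from -0.042, without replicate 2 of LPS plus 3A2, to 0.0042 over the fits leaving out a library. The count of genes whose groups did not overlap ranged from 4 to 11 over those fits, with 11 without replicate 2 of LPS plus 3A2 and 7 without replicate 1 of LPS plus 3A2, where 31.3% and 20.8% of all genes were apart. Calls in the other lists ranged from 0 to 1, Sppl2a without replicate 2 of LPS plus 3A2. Of the 13 mitochondrial mRNAs, 2 were called with no filter, 5 without replicate 2 of LPS plus 3A2 and 1 with GC offsets, and Lyz2 was called with GC offsets.

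Single genes near a fold change of 1 changed sign in 34 of 512 values, where the log2 fold change was at most 0.096 in size, while the changes reported for those genes reached 0.12 (Lamp2), and 16 of the 32 genes never did. Outside the fits leaving out a library these were Scarb2 with reduced totals (0.00010) and with no filter (0.00087), and Cd68 (0.011), Ctsd (0.031) and Ctsz (0.014) with GC offsets, all log2 fold changes. Over the fits leaving out a library, the log2 fold changes of the genes that changed sign there ran from -0.029 to 0.044 for Lamp1, -0.020 to 0.051 for Mcoln1, -0.021 to 0.0043 for Ctsb, -0.012 to 0.0037 for Scarb2, -0.044 to 0.047 for Psap, -0.10 to 0.078 for Tfe3, -0.045 to 0.10 for Atp6v0c, -0.027 to 0.23 for Lamp2, -0.10 to 0.057 for Cd68, -0.060 to 0.016 for Ctsd, -0.10 to 0.024 for Ctsz, -0.074 to 0.011 for Glb1, -0.057 to 0.10 for Lipa, -0.047 to 0.12 for Atp6v1a, -0.0063 to 0.059 for Atp6v1b2 and -0.0031 to 0.062 for Hexa.

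With the replicate number as a block, 1 gene was called (Rnu5g) and 0 of the 32. The numbers were not taken to pair the samples. Deviations from the group means correlated at -0.010, 0.025 and -0.163 for replicates 1, 2 and 3. Of the LPS plus 3A2 libraries, 0 of 3 correlated best with the LPS library of its own number. These correlations are a description and no test of pairing, since deviations within a group of 3 sum to 0. Depth limits Tfeb most: at 5.57 to 9.39 CPM its interval reaches 1.74-fold.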
